A study of Mus musculus with 12 samples.

Results

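The apical ectodermal ridge is the thickened epithelium along the distal rim of the limb bud. It keeps the underlying mesenchyme growing through secreted FGFs, and in return the mesenchyme sustains the ridge through FGF10, the BMP antagonist Gremlin1 and other signals. The 10 genes described here were taken by symbol from the 53465 genes measured. They are the distal-less homeobox genes Dlx1, Dlx2, Dlx3, Dlx5 and Dlx6, the zinc finger genes Sp6 and Sp8, the ventral ectoderm homeobox gene En1, the p53 family gene Trp63 and Cd44. All but Cd44 encode transcription factors. Cd44 encodes a hyaluronan receptor of the cell surface that is enriched in the ridge.

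Forelimb buds of Swiss albino mouse embryos gave 12 libraries in 4 groups of 3, each library being 1 pair of buds. The Tbx3 series, at E9.75 to E10.0 (28 to 31 somites), compares wild types with buds labelled Tbx3-deficient (Tbx3ΔVenus/ΔVenus). In that allele a Venus reporter followed by a transcription stop sits at the start codon, per the labels, so it is not limited to the limb. The Hand2 series, at E10 to E10.25 (31 to 33 somites), holds Prrx1-Cre;Hand2+/+ buds as wild types and Prrx1-Cre;Hand2Δ/Δc buds as Hand2-deficient, so both of its groups carry the Cre. Prrx1-Cre is active in limb mesenchyme, while the ridge is ectoderm, so the ridge cells themselves are not the main cells that this Cre targets. Tbx3 encodes a T-box repressor and Hand2 a bHLH factor of the posterior mesenchyme. The labels do not say whether embryos of a group came from separate litters, so p-values measure the spread between these libraries.

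Libraries held 23311692 to 31764847 counts in the Tbx3 series and 60183822 to 68568005 counts in the Hand2 series. By the X- and Y-linked genes, 0 of 3 Tbx3 wild types and 2 of 3 buds labelled Tbx3-deficient were male, as were 1 of 3 Hand2 wild types and 2 of 3 Hand2-deficient buds. Levels are given as CPM, counts relative to library size after TMM scaling within each series. Hand2 stood at 120, 120 and 126 CPM in its wild types and at 0.187, 2.21 and 0.384 CPM in the Hand2-deficient buds. Tbx3 stood at 78.0, 77.3 and 79.3 CPM in its wild types and at 80.6, 79.3 and 73.3 CPM in the buds labelled Tbx3-deficient. The Tbx3 count was thus not lower in that group (log2 fold change -0.009, edgeR adjusted p = 0.954). The labels describe a transcription stop at the start codon, and these counts do not show that disruption. The reason was not tested, and that group is named by its label throughout. Hand2-deficient replicate 1 stands apart, with 5.37% of its counts on 1 gene (CT010467.1) against at most 1.01% on any gene in the other libraries. The epithelial markers Epcam (36.4 to 48.9 CPM over the 12 libraries) and Fgf8 (24.7 to 57.6 CPM), which marks the ridge, were present in every library, so the buds held the tissue in which these 10 genes are usually described. The summed level of 16 general epithelial markers was 343 to 392 CPM in Tbx3 wild types, 397 to 422 CPM in buds labelled Tbx3-deficient, 370 to 437 CPM in Hand2 wild types and 339 to 402 CPM in Hand2-deficient buds. In bulk buds, fewer ridge cells and less RNA per ridge cell cannot be told apart. None of the 10 genes is specific to the ridge, since Dlx genes, En1, Sp8 and Cd44 are also used in other embryonic tissues.

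The genes themselves show how the DLX family is arranged. Dlx1 (ENSMUSG00000041911, GRCm38 chromosome 2, 71528113 to 71533981, plus strand) and Dlx2 (ENSMUSG00000023391, chromosome 2, 71543408 to 71546754, minus strand) point at each other across 9.43 kb. Dlx6 (ENSMUSG00000029754, chromosome 6, 6863334 to 6868568, plus strand) and Dlx5 (ENSMUSG00000029755, chromosome 6, 6877805 to 6882085, minus strand) do so across 9.24 kb. Dlx3 (ENSMUSG00000001510, chromosome 11, 95120119 to 95125296, plus strand) has Dlx4 as its partner at 15.2 kb. Sp6 (ENSMUSG00000038560, chromosome 11, 97013394 to 97024734, plus strand) shares 3329 of its 3841 exonic bases with Gm11532 on the other strand. The strand setting of the counting is not given in the sources used here, so reads of Sp6 and Gm11532 cannot be told apart with certainty. Dlx1 shares 335 exonic bases with Dlx1as and Dlx6 shares 104 with Dlx6os2. Sp8 (ENSMUSG00000048562, chromosome 12, 118846329 to 118852576), En1 (ENSMUSG00000058665, chromosome 1, 120602418 to 120607992), Trp63 (ENSMUSG00000022510, chromosome 16, 25683763 to 25892102) and Cd44 (ENSMUSG00000005087, chromosome 2, 102811141 to 102901665) share no exonic base with another annotated gene. Trp63 makes long and amino-terminally truncated proteins from different promoters, and gene counts do not separate them.

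RefSeq promoters (GRCm38.p6, 250 bases before to 50 after a transcription start) were at hand for 5 of the 10 genes, with 3 starts for Sp8 and 1 each for Dlx1, Dlx2, En1 and Cd44. Those of Dlx1 and Dlx2 are shown because both genes of this neighbouring pair had lower means in both mutant groups, and that of En1 because its level was nearly the same in both Hand2 groups. Capitals mark the E-box CANNTG, the core that bHLH factors bind, searched on both strands, on which it reads the same.
Dlx1, chr2:71529195-71529494, plus strand: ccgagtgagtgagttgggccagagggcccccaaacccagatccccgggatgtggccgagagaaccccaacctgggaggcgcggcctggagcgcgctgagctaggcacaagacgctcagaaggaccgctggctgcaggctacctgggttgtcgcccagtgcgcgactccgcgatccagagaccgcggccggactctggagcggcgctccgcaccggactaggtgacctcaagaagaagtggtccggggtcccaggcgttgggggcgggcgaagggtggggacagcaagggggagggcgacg
Dlx2, chr2:71546705-71547004, minus strand: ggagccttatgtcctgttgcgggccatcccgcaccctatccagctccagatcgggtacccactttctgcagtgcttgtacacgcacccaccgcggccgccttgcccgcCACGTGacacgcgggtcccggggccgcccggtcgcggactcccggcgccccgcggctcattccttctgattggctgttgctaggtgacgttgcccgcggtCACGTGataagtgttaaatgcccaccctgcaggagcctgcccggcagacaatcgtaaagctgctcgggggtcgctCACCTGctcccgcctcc
En1, chr1:120602237-120602536, plus strand: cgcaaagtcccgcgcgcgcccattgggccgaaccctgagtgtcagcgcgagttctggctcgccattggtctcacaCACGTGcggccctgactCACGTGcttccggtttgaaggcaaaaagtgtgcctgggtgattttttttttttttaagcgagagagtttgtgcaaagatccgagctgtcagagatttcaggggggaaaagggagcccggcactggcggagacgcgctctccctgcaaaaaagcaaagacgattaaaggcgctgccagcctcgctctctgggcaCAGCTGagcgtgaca
The Dlx2 promoter holds 3 E-boxes (CACGTG at 2 places, CACCTG at 1) and the Dlx1 promoter 0. The En1 promoter also holds 3, of the forms CACGTG and CAGCTG. Of 32851 promoters of the same length, 72.3% hold at least 1 E-box. The T-box half-site TCACACCT, also read as AGGTGTGA on the other strand, occurred in 0 of the 7 promoters of these genes and in 1.28% of all promoters. The homeodomain core TAATTA occurred in 1 of the 7, a start of Sp8, and in 5.29% of all. These are matches of letters in a short window, not binding sites.

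Per exon length, Sp6 was the highest of the 10 genes and Dlx6 the lowest in all 4 groups. In Tbx3 wild types Sp6 stood at 9.83 CPM per kb, Sp8 at 7.54, Dlx2 at 5.54, Trp63 at 5.43, En1 at 4.84, Dlx3 at 4.58, Dlx5 at 2.24, Dlx1 at 2.07, Cd44 at 1.44 and Dlx6 at 0.649 CPM per kb. The ranges of the 3 libraries overlapped between Dlx2 and Trp63, Trp63 and En1, En1 and Dlx3, and Dlx5 and Dlx1, so the order within these pairs does not exceed the spread. In Hand2 wild types the same genes ran from 9.32 CPM per kb for Sp6 to 0.685 for Dlx6. There, in the order Sp8, Trp63, Dlx2, Dlx3 and En1, neighbours overlapped, between 6.22 and 4.38 CPM per kb on average. Dlx5 also overlapped Dlx1, while En1 did not overlap Dlx5. Within each Dlx pair the members differed: Dlx2 was above Dlx1 and Dlx5 above Dlx6 per kb in every group. The lowest count behind any of these values was 32, for Dlx6, and the highest 3110, for Trp63.

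**Figure D1:**
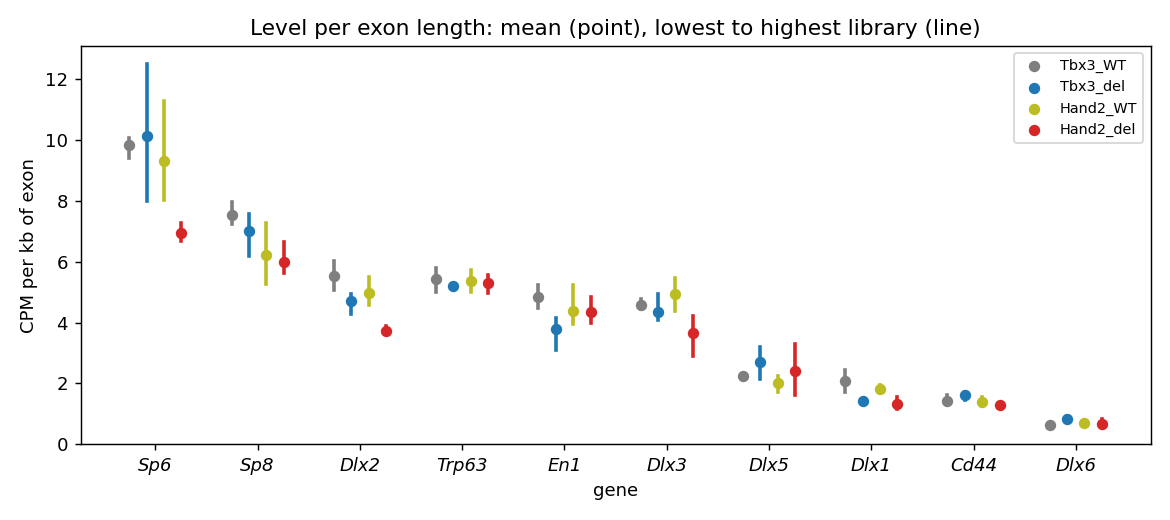
Level of the 10 genes in CPM per kb of exon (vertical axis) by gene (horizontal axis), with the mean of each group as a point and the lowest to highest of 3 libraries as a line. Sp6 leads in all 4 groups and Dlx6 is lowest; the Hand2-deficient points of Sp6, Dlx2, Dlx3 and Dlx1 lie below those of the Hand2 wild types.

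The Hand2 comparison asks how forelimb buds differ between Prrx1-Cre;Hand2Δ/Δc and Prrx1-Cre;Hand2+/+ embryos. Of the 10 genes, 1 passed the test, Dlx2, which fell, and 9 did not. Among all 17488 genes tested 10.5% were called, 4.68% higher and 5.82% lower, so 1 of 10 is close to the background. Calls rest on edgeR's quasi-likelihood test at a Benjamini-Hochberg adjusted p, taken over the whole table, below 0.05, and any adjusted p given without a tool is from it. Dlx1, Dlx3 and Sp6 had levels near 0.74 of the wild type, as Dlx2 did, with adjusted p from 0.0662 to 0.103. The groups did not overlap for these 4 genes, all lower in the Hand2-deficient buds, where 38.2% of all genes did not overlap, 18.7% higher and 19.5% lower. Sp8, En1, Trp63 and Dlx6 had log2 fold changes between -0.05 and -0.01. The median log2 fold change of the 10 genes was -0.08, beside 0.01 over all genes tested.

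Dlx2, a homeobox gene of the ridge and of neural crest and forebrain, stood at 15.7, 13.1 and 13.8 CPM in Hand2 wild types and at 10.4, 10.4 and 11.1 CPM in Hand2-deficient buds. Every deficient library lay below every wild type, and the deficient ones were close to each other. The mean fell from 14.2 ± 1.36 to 10.7 ± 0.384 CPM (SD, n = 3), or by 0.41 on the log2 scale (SE 0.0892, adjusted p = 0.0376 in edgeR). Leaving out 1 library ended the call in 5 of 6 cases, with an adjusted p of 0.101 without wild-type replicate 1, 0.114 without wild-type replicate 3, and 0.108, 0.073 and 0.0844 without deficient replicate 1, 2 or 3. The log2 fold change stayed between -0.34 and -0.47 in those and all other fits. The call also ended with the replicate number as a block (0.129), with embryo sex as a covariate (0.0776) and with the summed epithelial markers as the library size (-0.35, adjusted p = 0.26).

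Its neighbour Dlx1, expressed with Dlx2 in many tissues, stood at 10.4, 9.74 and 9.10 CPM in Hand2 wild types and at 6.28, 6.78 and 8.44 CPM in Hand2-deficient buds. The groups did not overlap, but deficient replicate 3 came near the lowest wild type. The log2 fold change was -0.44 (SE 0.127, adjusted p = 0.0662 in edgeR, 0.0124 in DESeq2). Summed with Dlx1as it was -0.43 (adjusted p = 0.0675).

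Dlx3, which is needed in placenta and epidermis and is expressed in the ridge, stood at 14.3, 12.9 and 11.4 CPM in Hand2 wild types and at 9.93, 7.60 and 11.03 CPM in Hand2-deficient buds. Deficient replicate 3 and wild-type replicate 3 were almost level. The log2 fold change was -0.43 (SE 0.152, adjusted p = 0.103 in edgeR, 0.029 in DESeq2).

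Sp6, a ridge zinc finger gene that acts together with Sp8, stood at 43.4, 33.1 and 30.9 CPM in Hand2 wild types and at 27.9, 26.4 and 25.7 CPM in Hand2-deficient buds. Wild-type replicate 1 was far above the other wild types, and all 3 deficient libraries were below them. The log2 fold change was -0.42 (SE 0.125, adjusted p = 0.0702 in edgeR, 0.00604 in DESeq2). Without wild-type replicate 1 it was -0.27. Summed with Gm11532, which stood at 0.989 to 2.00 CPM in this series, it was -0.42 (adjusted p = 0.0763).

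Sp8, which is required for ridge formation and Fgf8 expression, stood at 33.2, 24.1 and 27.7 CPM in Hand2 wild types and at 30.4, 25.9 and 25.7 CPM in Hand2-deficient buds. The groups overlapped, and the log2 fold change of -0.05 had a 95% interval from -0.35 to 0.24. En1, the ventral ectoderm gene that positions the ridge, stood at 13.7, 10.4 and 10.4 CPM in the wild types and at 12.7, 11.2 and 10.4 CPM in the deficient buds. Its log2 fold change was -0.01 (95% interval -0.33 to 0.31). In both genes wild-type replicate 1 was the highest library.

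Trp63, the master regulator of stratified epithelium, stood at 47.9, 45.3 and 42.1 CPM in Hand2 wild types and at 46.6, 41.7 and 45.4 CPM in Hand2-deficient buds. Its log2 fold change was -0.02, with the narrowest interval of the 10 genes in this comparison (-0.17 to 0.13). Cd44 stood at 10.6, 8.46 and 9.08 CPM in the wild types and at 8.20, 8.86 and 8.96 CPM in the deficient buds (log2 fold change -0.11, interval -0.36 to 0.13). For both genes the libraries of both groups overlapped.

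Dlx5, which acts with Dlx6 in the ridge and in cartilage and bone, had the largest SE of the 10 genes in this comparison (0.252). It stood at 5.05, 3.87 and 4.76 CPM in Hand2 wild types and at 7.45, 3.66 and 5.23 CPM in Hand2-deficient buds. Deficient replicates 1 and 2 were the highest and the lowest of the 6 libraries. The log2 fold change of 0.25 (95% interval -0.34 to 0.85) became -0.04 without deficient replicate 1. Dlx6 stood at 1.56, 1.60 and 1.72 CPM in the wild types and at 1.95, 1.52 and 1.299 CPM in the deficient buds, again with deficient replicate 1 highest (log2 fold change -0.03, interval -0.47 to 0.40).

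**Figure D2:**
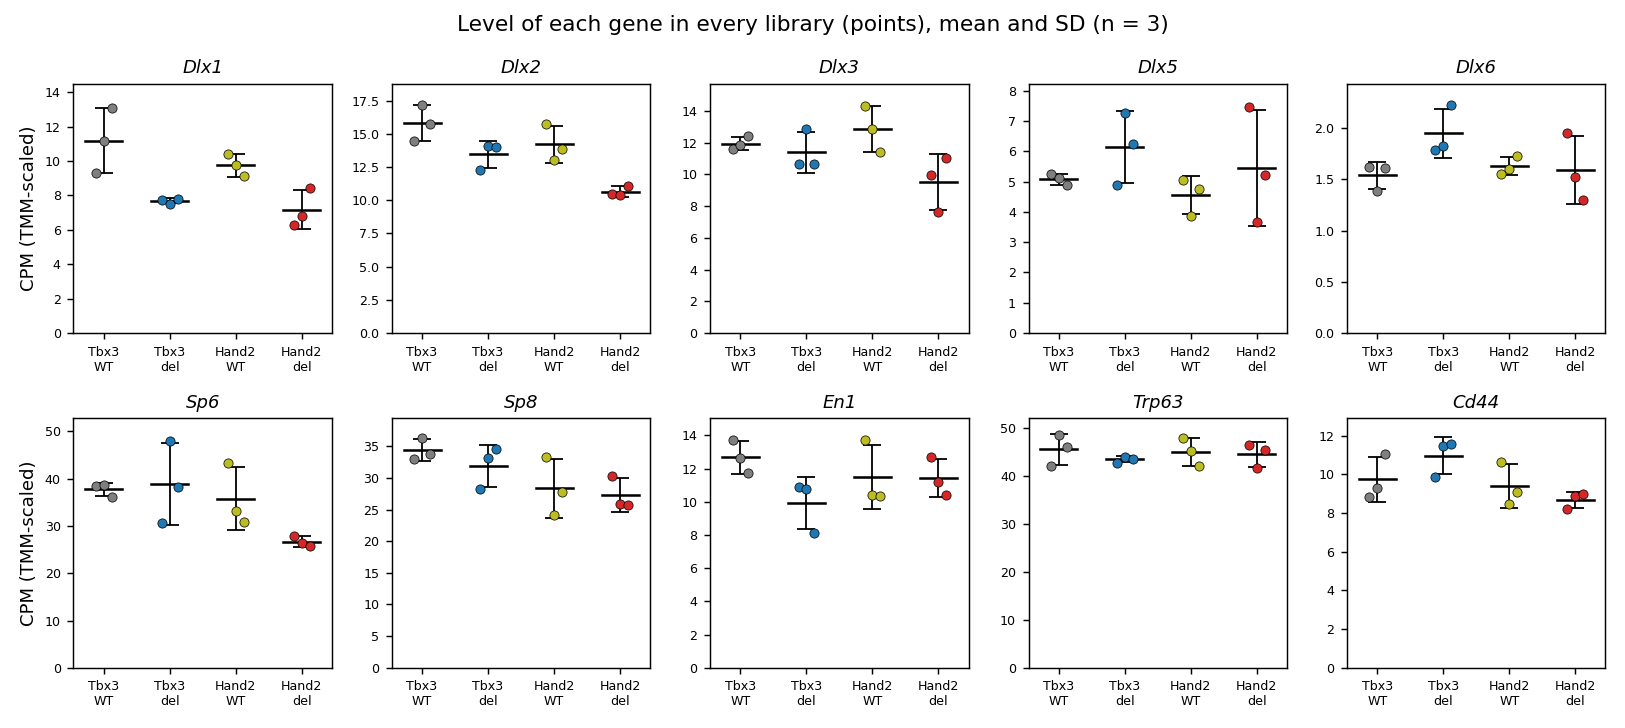
Level of each of the 10 genes in CPM (vertical axis, from 0) in the 4 groups (horizontal axis), with each library as a point and the mean and SD of 3 libraries as bars. Dlx1, Dlx2, Dlx3 and Sp6 are lower in all Hand2-deficient libraries than in all Hand2 wild types, while Trp63 is between 41.7 and 48.7 CPM in all 12 libraries.

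The Tbx3 comparison asks how forelimb buds change in embryos labelled as carrying the disrupted Tbx3 allele. Of the 10 genes, 0 were called by edgeR, where 1.01% of 15130 genes tested were called, 0.727% higher and 0.284% lower. At an unadjusted p under 0.05 there were 2, Dlx1 and En1, and DESeq2 called 1, Dlx1. DESeq2 called 3.64% of all genes tested here and 19.9% in the Hand2 comparison. The share of all genes at an unadjusted p under 0.05 was not counted. Counts at that threshold, here and below, therefore have no background beside them. The groups did not overlap for 4 genes (Dlx1, Dlx2 and En1 lower, Dlx6 higher), where 20.6% of all genes did not overlap, 10.7% higher and 9.95% lower. The median log2 fold change was -0.07, beside 0.00 over all genes tested.

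Dlx1 stood at 9.30, 11.1 and 13.1 CPM in Tbx3 wild types and at 7.73, 7.51 and 7.81 CPM in buds labelled Tbx3-deficient. The wild types were spread widely, whereas the 3 other libraries nearly coincided below them. The means were 11.2 ± 1.90 and 7.69 ± 0.157 CPM (SD, n = 3). On the log2 scale the change was -0.54 (SE 0.141, edgeR adjusted p = 0.143, DESeq2 0.0456). With the summed epithelial markers as the library size it was -0.71 (adjusted p = 0.0351). This library size itself was higher in the buds labelled Tbx3-deficient, as the marker sums given above show.

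Dlx2 stood at 14.5, 17.2 and 15.7 CPM in Tbx3 wild types and at 12.3, 14.1 and 14.0 CPM in buds labelled Tbx3-deficient. The groups did not overlap but came close (log2 fold change -0.23, SE 0.103, adjusted p = 0.368). En1 stood at 13.7, 12.7 and 11.7 CPM in the wild types and at 10.9, 10.8 and 8.11 CPM in the others, where replicate 3 was the lowest of all 12 libraries. Its log2 fold change was -0.36 (95% interval -0.68 to -0.03, adjusted p = 0.303).

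Dlx6 stood at 1.62, 1.39 and 1.61 CPM in Tbx3 wild types and at 1.79, 1.83 and 2.22 CPM in buds labelled Tbx3-deficient. Its log2 fold change was 0.34 (SE 0.204, adjusted p = 0.508). Dlx5 stood at 5.25, 5.11 and 4.88 CPM in the wild types and at 4.88, 7.26 and 6.26 CPM in the others (log2 fold change 0.27, adjusted p = 0.514). For Dlx5, replicate 1 labelled Tbx3-deficient was level with the lowest wild type, and the other libraries with that label were above all wild types.

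The remaining genes overlapped between the groups of the Tbx3 series. Sp6 stood at 38.4, 38.6 and 36.2 CPM in the wild types and at 30.7, 48.0 and 38.1 CPM in buds labelled Tbx3-deficient. The 3 libraries labelled Tbx3-deficient spanned the widest range of any group, and the log2 fold change of 0.05 became -0.13 without replicate 2 of them. Sp8 stood at 32.9, 36.3 and 33.8 CPM in the wild types and at 28.2, 33.1 and 34.5 CPM in the others (log2 fold change -0.11, 95% interval -0.30 to 0.09).

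Trp63 stood at 42.1, 48.7 and 46.0 CPM in Tbx3 wild types and at 42.8, 44.0 and 43.7 CPM in buds labelled Tbx3-deficient. Its interval ran from -0.21 to 0.07 around -0.07. Dlx3 stood at 11.6, 11.8 and 12.4 CPM in the wild types and at 10.6, 12.9 and 10.6 CPM in the others (-0.07, interval -0.33 to 0.19). Cd44 stood at 8.83, 9.31 and 11.1 CPM in the wild types and at 9.85, 11.5 and 11.6 CPM in the others (0.17, interval -0.12 to 0.46). None of these 3 genes differed beyond the spread between libraries.

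**Figure D3:**
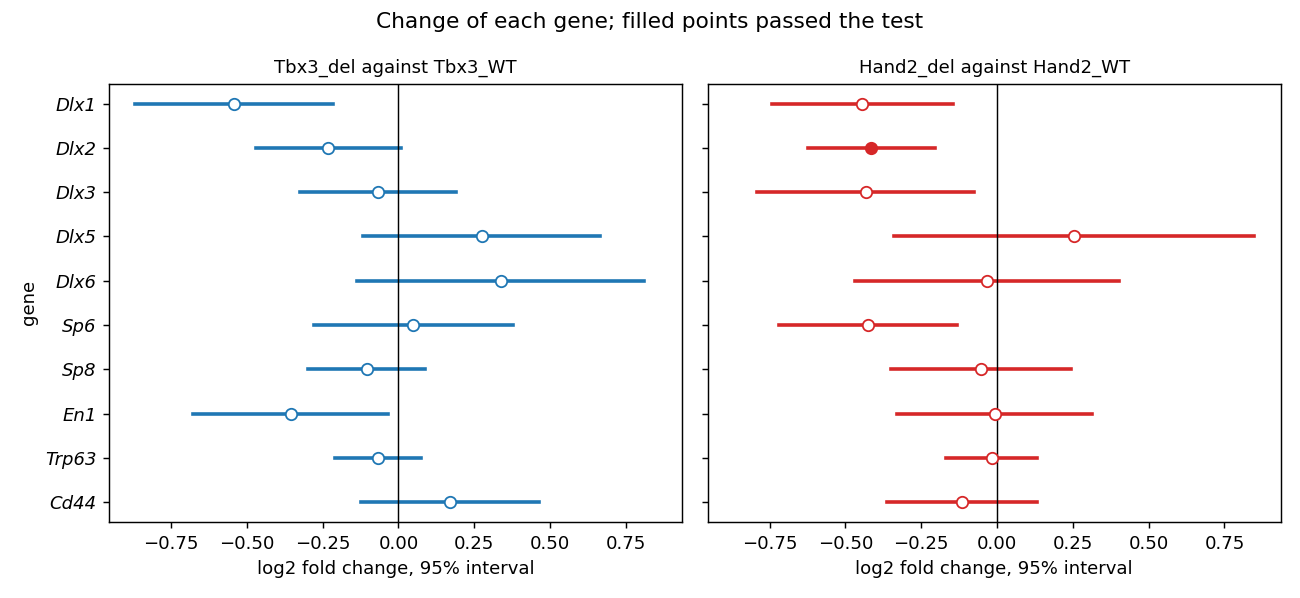
Log2 fold change of each gene (horizontal axis), deficient over wild type, with its 95% interval, in the Tbx3 series (left) and the Hand2 series (right); filled points were called by edgeR at an adjusted p under 0.05. Dlx2 in the Hand2 series is the only filled point, and the intervals of Dlx1, Dlx3 and Sp6 there also lie below 0.

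Whether both effects differ was tested in 1 fit of all 12 libraries, as the Hand2 effect minus the Tbx3 effect. Of the 10 genes 0 were called by edgeR, where 1.68% of 17360 genes were called, 0.789% with a higher and 0.893% with a lower Hand2 effect. At an unadjusted p under 0.05 there was 1, Sp6, and DESeq2 called 0, where it called 4.95% of all genes tested. Sp6 had a difference of -0.47 (95% interval -0.94 to -0.01, adjusted p = 0.28). For Dlx1 the difference was 0.10 (interval -0.32 to 0.52), for Dlx2 -0.18 (-0.48 to 0.12) and for Dlx3 -0.36 (-0.79 to 0.06). For En1 it was 0.35 (-0.10 to 0.80), with lower values in the Tbx3 series alone. Stage, the gene targeted, the cells that lose it and depth differ together between the series, so no such difference can be assigned to any of them.

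The wild types of both series had similar levels of most of the 10 genes, although they were scaled separately and were not tested against each other. Trp63 stood at 45.6 ± 3.28 CPM at the earlier stage and 45.1 ± 2.95 CPM at the later one (SD, n = 3). Sp8 stood at 34.3 ± 1.71 and 28.3 ± 4.61 CPM, and its ranges overlapped. Dlx2 stood at 15.8 ± 1.37 and 14.2 ± 1.36 CPM, and Dlx3 at 11.9 ± 0.430 and 12.9 ± 1.44 CPM.

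Among the signals that the ridge and limb ectoderm send, 3 FGF genes fell in the Hand2 comparison. Of 15 ligand genes these 3 fell, 0 rose and 12 did not pass, at a median log2 fold change of -0.03. Fgf8, the main ridge FGF, stood at 37.3, 48.4 and 47.1 CPM in Hand2 wild types and at 24.7, 25.5 and 28.7 CPM in Hand2-deficient buds. Its mean fell to 0.594 of the wild type (log2 fold change -0.75, SE 0.109, adjusted p = 0.0144), a call that ended without wild-type replicate 3 (0.062). Fgf4, a posterior ridge FGF, fell from 2.48 ± 1.39 to 0.464 ± 0.0752 CPM (SD, n = 3; log2 fold change -2.41, adjusted p = 0.0294). Fgf9 fell from 1.63 ± 0.342 to 0.767 ± 0.0773 CPM (log2 fold change -1.08, adjusted p = 0.0296). Fgf17, with a log2 fold change of -0.87, did not pass (adjusted p = 0.0822). Both the Fgf4 and the Fgf9 call were lost when wild-type replicate 3 was left out (0.0954 and 0.106). They were also lost without deficient replicate 1 (0.0865 and 0.0851), 2 (0.0594 and 0.0634) or 3 (0.0912 and 0.0709). Of 13 alternative fits, 7 called Fgf4 and 6 called Fgf9. The WNT ligand genes of the ectoderm (Wnt3, Wnt4, Wnt6, Wnt7a, Wnt7b, Wnt10a and Wnt10b) had log2 fold changes from -0.20 to 0.17, none called.

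In the Tbx3 comparison 0 of the 15 ligand genes were called by edgeR or DESeq2, with 4 at an unadjusted p under 0.05 (Fgf9, Wnt10b, Bmp4 and Bmp7, all higher). Fgf8 stood at 48.0, 49.4 and 52.4 CPM in the wild types and at 50.8, 38.7 and 57.6 CPM in buds labelled Tbx3-deficient. The difference between the Hand2 and Tbx3 effects on Fgf9 was called (log2 -1.68, SE 0.287, adjusted p = 0.0167), while those on Fgf8 (-0.72, 0.0843) and Fgf4 (-3.02, 0.0781) were not called by edgeR but were by DESeq2. Without replicate 2 labelled Tbx3-deficient the Fgf9 call ended (0.0512) and that of Fgf8 was made (0.0294). The Fgf9 call also ended with the replicate block (0.1001).

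Of 17 receptor, mediator and target genes of ridge signalling, 4 fell and 1 rose in the Hand2 comparison. Spry4, a feedback inhibitor induced by FGF, fell from 58.3 to 40.6 CPM (log2 fold change -0.52, adjusted p = 0.00448), with no overlap between groups. Grem1, which encodes the BMP antagonist Gremlin1, fell from 55.0 to 21.9 CPM (-1.33, adjusted p = 0.00668). Dkk1, a WNT antagonist, fell from 14.8 to 10.6 CPM (-0.48, adjusted p = 0.0152), and Fgf10, the mesenchymal FGF that acts on the ridge, from 40.1 to 26.2 CPM (-0.61, adjusted p = 0.0387). Rspo2, a WNT agonist that the ridge expresses and requires, rose from 22.6 to 28.8 CPM (0.35, adjusted p = 0.029). Spry4 and Grem1 kept their calls whichever library was left out. Dkk1 lost its call when replicate 3 was left out of the wild types (0.0615) or of the deficient buds (0.0547). Fgf10 lost it when replicate 1 or 3 was left out of the wild types (0.117, 0.132) or of the deficient buds (0.108, 0.101). Rspo2 lost it when replicate 1 or 3 of the wild types (0.0973, 0.0941) or replicate 2 or 3 of the deficient buds (0.0567, 0.0805) was left out. Of 13 alternative fits, 10 called Dkk1, 7 called Fgf10 and 6 called Rspo2. In the Tbx3 comparison 0 of 17 were called by edgeR, with Rspo2 alone at an unadjusted p under 0.05 and called by DESeq2.

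Genes that depend on p63, the product of Trp63, were also examined, since Trp63 itself was level. Of 15 tested in the Hand2 comparison, 1 rose, the basement membrane gene Fras1 (47.4 to 64.0 CPM, log2 fold change 0.43, adjusted p = 0.0375). The other call was Tfap2c, an ectodermal AP-2 factor gene, which fell from 43.8 to 30.0 CPM (-0.55, adjusted p = 0.0434). Fras1 lost its call when replicate 1 or 3 was left out of the wild types (0.106, 0.122) or of the deficient buds (0.102, 0.103). Tfap2c lost it when replicate 1 or 3 of the wild types (0.123, 0.138) or any of the deficient libraries (0.111, 0.0792, 0.0717) was left out. Of 13 alternative fits, 7 called Fras1 and 6 called Tfap2c. Of 14 tested in the Tbx3 comparison, 0 were called by edgeR, 2 had an unadjusted p under 0.05 (Itgb4 and Fras1) and DESeq2 called 1 (Fras1). The medians were 0.03 and 0.04.

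Other members of the same gene families gave 1 call. Sp9, the closest relative of Sp8 and also a ridge gene, stood at 0.512, 0.563 and 0.883 CPM in Tbx3 wild types and at 3.50, 2.24 and 2.85 CPM in buds labelled Tbx3-deficient. All 3 of these were above every other library of the study, since the Hand2 series ran from 0.457 to 1.11 CPM. Sp9 rose 4.39-fold on average (log2 fold change 2.11, SE 0.294, adjusted p = 0.0279), from counts of 12, 13 and 23 to 86, 71 and 77. Any wild type left out ended the call (0.0821, 0.105 and 0.0532 for replicates 1 to 3), as did replicate 2 (0.0532) or 3 (0.0879) labelled Tbx3-deficient, and the log2 fold change lay between 1.97 and 2.40 in these fits. It also ended with the replicate block (0.0594). With embryo sex as a covariate the log2 fold change was 2.11. That fit compares 1 female library labelled Tbx3-deficient with 3 female wild types, so it cannot decide whether the call holds. In the Hand2 series Sp9 had a log2 fold change of -0.08 (95% interval -1.002 to 0.85), and the difference between both effects did not pass in edgeR (-2.19, adjusted p = 0.0648) but did in DESeq2.

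**Figure D4:**
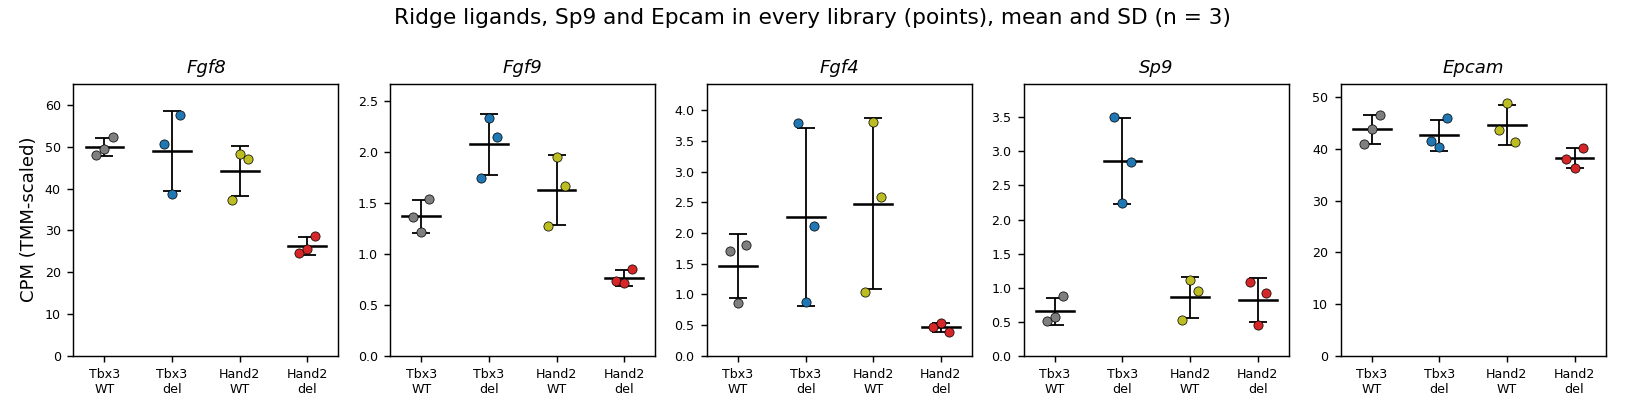
Level in CPM (vertical axis, from 0) of Fgf8, Fgf9, Fgf4, Sp9 and Epcam in the 4 groups (horizontal axis), with each library as a point and the mean and SD of 3 libraries as bars. Fgf8, Fgf9 and Fgf4 are lowest in the Hand2-deficient libraries, and Sp9 is highest in the 3 libraries labelled Tbx3-deficient.

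Dlx4, the partner of Dlx3, stood at 1.15 to 1.67 CPM in the Tbx3 series and at 0.822 to 1.44 CPM in the Hand2 series, with log2 fold changes of 0.05 and -0.39 that did not pass. In the Hand2 comparison 0 of the 7 other family members tested were called by edgeR or DESeq2, and 0 had an unadjusted p under 0.05. The antisense gene Dlx1as was at most 0.390 CPM in any library.

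General epithelial markers gave 1 call of 16 in the Tbx3 comparison, the tight junction gene Cldn6, which rose from 33.0 to 44.3 CPM (log2 fold change 0.43, adjusted p = 0.0439). That call ended without each of the 6 libraries (adjusted p from 0.0557 to 0.158). It also ended with the replicate block (0.0846). With embryo sex as a covariate, where only 1 library labelled Tbx3-deficient was female like the wild types, the log2 fold change was 0.44. In the Hand2 comparison edgeR called 0 of 16, 2 had an unadjusted p under 0.05 (Epcam and Cldn6) and DESeq2 called 1 (Epcam). Epcam stood at 43.8, 48.9 and 41.4 CPM in Hand2 wild types and at 38.1, 36.4 and 40.2 CPM in Hand2-deficient buds, with an adjusted p of 0.0799 at a log2 fold change of -0.23. With the summed counts of these 16 markers as the library size, Dlx1, Dlx2, Dlx3 and Sp6 had log2 fold changes of -0.38, -0.35, -0.38 and -0.36 in the Hand2 comparison, none called. The part of epithelium content in these values was not tested beyond this scaling.

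**Figure D5:**
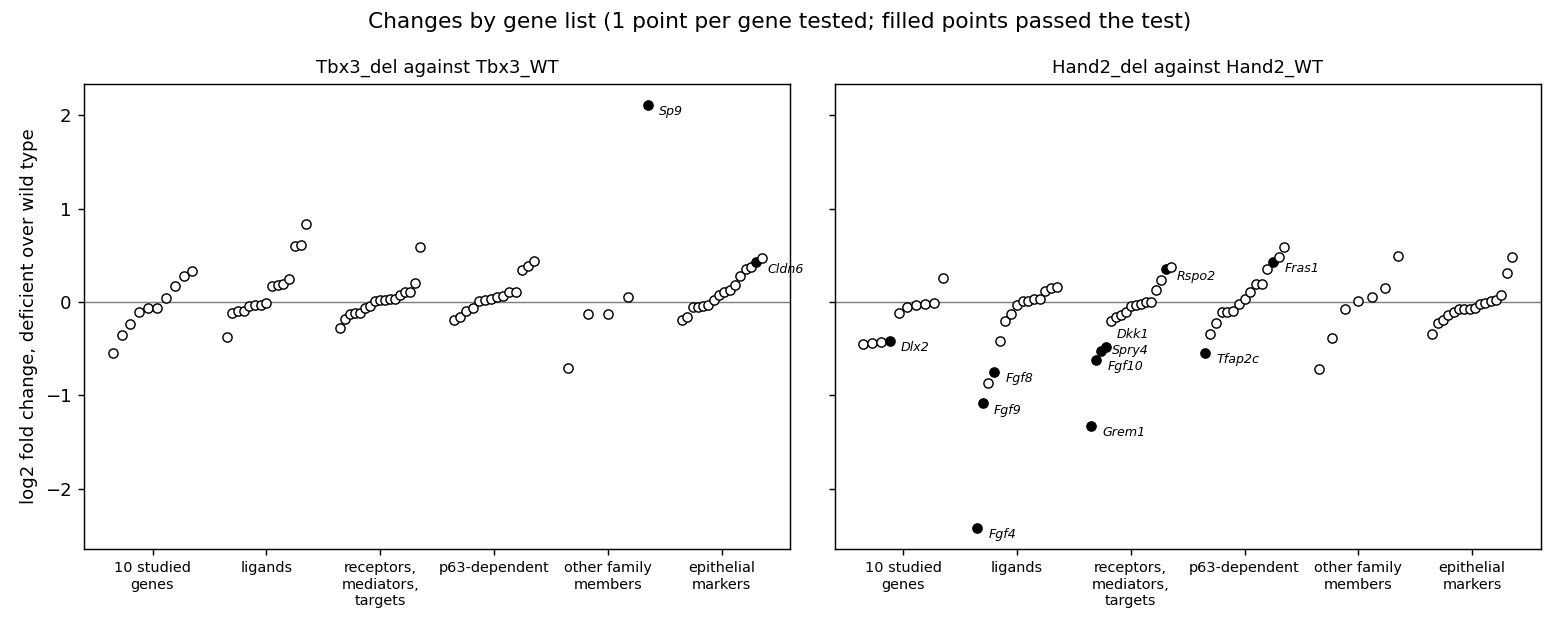
Log2 fold change (vertical axis) of every gene tested in 6 gene lists (horizontal axis), in the Tbx3 series (left) and the Hand2 series (right); each point is 1 gene and filled, named points were called by edgeR. In the Hand2 series Fgf4, Fgf9, Fgf8 and Grem1 lie below all 10 studied genes, and in the Tbx3 series Sp9 stands alone above 2.

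Some cells other than ridge express members of this set, so the summed levels of their markers were compared between groups. Neural crest, where Dlx1, Dlx2, Dlx5 and Dlx6 are used, had summed levels of 6 markers of 49.1 to 55.3 CPM in Tbx3 wild types and 66.9 to 92.1 CPM in buds labelled Tbx3-deficient. In the Hand2 series they were 36.2 to 48.8 CPM and 46.9 to 55.2 CPM, which overlapped. Ngfr was the largest part of these sums, with means of 37.3 and 61.6 CPM in the Tbx3 series. Sox10 (0.250 and 0.347 CPM) overlapped between the groups there, and Foxd3 was near 0. All 4 neural crest markers tested there had log2 fold changes above 0. Summed macrophage markers, 8 genes of cells that express Cd44, were 1.95 to 4.57 and 6.82 to 8.22 CPM in the Tbx3 series and 4.40 to 6.77 and 8.24 to 16.1 CPM in the Hand2 series. Of these single markers, edgeR called 0 of 4 neural crest and 0 of 3 macrophage genes in the Tbx3 comparison (1 and 3 at an unadjusted p under 0.05, 1 and 0 by DESeq2). In the Hand2 comparison it called 0 of 5 neural crest genes (1 at an unadjusted p under 0.05, 0 by DESeq2) and 2 of 8 macrophage genes, both higher. No marker in these lists was at 0 in all libraries, and their part in the levels of the 10 genes was not tested.

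Further marker sums were compared, each weighted towards its most abundant genes. Somite markers, whose cells use En1, summed to 138 to 152 CPM in Tbx3 wild types, 145 to 164 CPM in buds labelled Tbx3-deficient, 112 to 129 CPM in Hand2 wild types and 122 to 127 CPM in Hand2-deficient buds. Neuron markers summed to 45.9 to 61.1, 28.1 to 46.1, 60.4 to 68.9 and 65.4 to 85.2 CPM in the same order. Body wall and coelomic markers summed to 46.8 to 88.8, 68.0 to 104, 50.9 to 63.6 and 93.3 to 106 CPM. Endothelial markers summed to 242 to 275, 245 to 281, 254 to 256 and 270 to 298 CPM. Limb mesenchyme markers summed to 1371 to 1381, 1141 to 1288, 1329 to 1486 and 1455 to 1826 CPM. Of these 6 markers edgeR called 1 in the Tbx3 comparison, Tbx5, which fell. In the Hand2 comparison it called 3, Prrx2 and Twist1, which rose, and Fgf10, which fell. Of the somite, neuron and endothelial markers it called 0 of 6, 0 of 4 and 0 of 6 in the Tbx3 comparison. In the Hand2 comparison it called 0 of 6, 1 of 5 (Stmn2) and 1 of 6 (Cdh5), both higher. Tbx18 led the body wall and coelomic sum in Tbx3 wild types, and its mean was lower with the Tbx3-deficient label (40.9 and 25.1 CPM). The means of Wt1 (5.04 and 13.6), Gata4 (1.79 and 5.66), Gata6 (11.4 and 33.4) and Upk3b (3.25 and 10.5) were higher there, and those of Upk1b and Msln lower. None of these was called by edgeR in the Tbx3 comparison. In the Hand2 comparison it called 2 of the 6 tested, both higher. These were Gata4 (log2 fold change 3.14, adjusted p = 0.0402) and Tbx18 (0.58, adjusted p = 0.0439). The 88.8 CPM came from Tbx3 wild-type replicate 1, where Wt1 stood at 10.5 CPM against 0.866 and 3.73 CPM. Of the hindlimb markers, Pitx1 rose from 0.610 to 12.7 CPM in the Tbx3 series (log2 fold change 4.38, adjusted p = 0.000406) and from 0.961 to 2.53 CPM in the Hand2 series (1.39, adjusted p = 0.0335). Tbx4 stood at 2.49 and 2.42 CPM in the Tbx3 series and at 3.03 and 4.24 CPM in the Hand2 series, and did not pass in either.

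Profiles were also compared gene by gene, as the root mean square difference of log2 CPM (prior count 2) centred within each series, over 12 libraries, between each of the 10 genes and 69 genes of the ridge, p63, family and epithelial lists. The prior count shrinks the deviations of genes with few counts, so a small value means that both genes moved together, that both varied little or that both were low. Of these 69 genes, Epcam was closest to Dlx1 and to Dlx3 (0.177 and 0.138), beside own deviations of 0.232 and 0.182. Bmp2 was closest to Dlx2 (0.116, own deviation 0.165) and Itga3 to Sp6 (0.150, own deviation 0.213). By the same measure among the 10 genes, Dlx2 was nearer to Dlx1 (0.135) and to Dlx3 (0.124) than Epcam was. Dlx3 was nearer to Sp6 (0.144) than Itga3 was. For the remaining studied genes, the closest of the 69 was nearer than any other studied gene. Msx1 was closest to Dlx5 (0.153, own deviation 0.204) and Tcf7 to Sp8 (0.0998, own deviation 0.128). Sp7 was closest to En1 (0.137, own deviation 0.171). Bmp7 was closest to Dlx6 (0.0731, own deviation 0.0889) and Wnt7a to Cd44 (0.103, own deviation 0.113). Dlx1as was closest to Trp63 (0.0509, own deviation 0.0687), but with 1 to 10 counts per library it says nothing of a shared profile.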

How the data were processed

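RNA of mouse forelimb buds was sequenced in 12 libraries. The deposited files hold RSEM expected counts per Ensembl gene, per the file headers, 1 library per file and not normalised. Per the submitters' processing notes the tools were RSEM 1.3.0, STAR 2.5.2 and FastQC 0.11.4, and the build mm10. For the gene annotation and the strand setting, "not given in the sources used here" applies. Genes were matched by Ensembl identifier to GENCODE M21 (GRCm38), which gave a symbol for 53274 of 53465 genes, and all 10 members matched. Between 12.5% and 16.2% of the expected counts per library, as deposited, were not whole, and counts were rounded.

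Within each series edgeR 4.0.16 (R 4.3.3) fitted the 3 mutant and 3 wild-type libraries, after filterByExpr (minimum count 10, minimum total 15) and TMM scaling, with the quasi-likelihood F test. Benjamini-Hochberg adjustment covered every gene tested. All 10 members passed the filter in both series. Log2 fold changes use a prior count of 0.125, the SE is the log2 fold change over the root of F, and 95% intervals use the fit's degrees of freedom. The fits were tested on simulated data. Alternatives were RLE factors, DESeq2 1.42.0, no filter, a replicate block, embryo sex as a covariate, each library left out, the 4-group fit, Hand2 counts thinned to the Tbx3 depth, and the summed epithelial markers as library size. Summing Sp6 and Dlx1 with their antisense genes was chosen after seeing the data. The members and lists were chosen with earlier results of these data known. Named genes are the members, both targeted genes, Fgf8, Epcam, and at most 4 called genes with the smallest adjusted p of each ridge, p63, family and epithelial list. Fgf10, Fgf17, Dlx4, Pitx1, Tbx4 and others named by count or at an unadjusted p were named outside this rule after their values were seen. So were the single neural crest, body wall and coelomic markers and the called markers of the limb mesenchyme, neuron and endothelial lists. Other marker lists are given by counts and sums.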

Additional observations from a re-analysis of the deposited data

Results flagged for a closer look

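The effects of the 2 series differed by a test of the difference itself, Hand2 effect minus Tbx3 effect in edgeR over all 12 libraries, for 3 of the named genes and for 0 of the 10 studied genes. Fgf9 had a difference of -1.68 on the log2 scale (adjusted p = 0.0167), lower in 3 of 3 Hand2-deficient libraries and higher in 3 of 3 libraries labelled Tbx3-deficient than in all their wild types. That call ended without replicate 2 labelled Tbx3-deficient (0.0512) and with the replicate number as a block (0.1001). Cldn6 had a difference of -0.57 (adjusted p = 0.011), a call that held with each library left out and ended with the replicate block (0.07339). Hand2, the targeted gene of 1 series, had a difference of -6.55 (adjusted p = 0.000435). Groups of 3 libraries are too small for a test of single outlying libraries.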

How the results depend on the processing

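Over all genes the Tbx3 comparison had 153 calls, which became 551 with DESeq2, 504 without the filter, 422 in the 4-group fit, 22 with embryo sex as a covariate and 23 to 220 with 1 library left out. The Hand2 comparison had 1836, which became 3475 with DESeq2, 526 with embryo sex, 1209 when thinned to the Tbx3 depth and 218 to 2223 with 1 library left out. The difference between both effects had 292, which became 859 with DESeq2 and 123 to 336 with 1 library left out. Of the 10 studied genes, the 0 called in the Tbx3 comparison became 1 (Dlx1) with DESeq2 and 1 (Dlx1) with epithelial scaling, and stayed at 0 with each library left out. The 1 called in the Hand2 comparison became 4 with DESeq2 (19.9% of all genes called) and 2 without the filter (5.35%). It became 0 with embryo sex, 0 with epithelial scaling and 0 to 1 with 1 library left out. With the replicate number as a block the calls over all genes were 87, 161 and 69 in the 3 tests, and 0 of the 10 genes were called in each. Deviations of same-numbered libraries had correlations across genes of 0.0939, 0.0325 and -0.0286 in the Tbx3 series. In the Hand2 series they were -0.203, 0.0511 and 0.124, and not every library correlated best with its own number. With 3 libraries per group and no litters in the labels, these values cannot settle whether the numbers pair the libraries. Changes of sign were seen only in values that were not called. In the Tbx3 comparison these were, with embryo sex, Sp8 (0.0056), Fgf8 (0.21), Epcam (0.072), Spry4 (0.12) and Tfap2c (0.12), and, with epithelial scaling, Sp6 (-0.12). In the Hand2 comparison they were, with embryo sex, En1 (0.024), with epithelial scaling, Dlx6 (0.037), Sp8 (0.0048), En1 (0.054) and Trp63 (0.050), and, at the thinned depth, Dlx6 (0.076), En1 (0.072) and Trp63 (0.016). With 1 library left out, log2 fold changes in the Tbx3 comparison ran from -0.13 to 0.19 for Sp6, -0.034 to 0.031 for Tbx3, -0.16 to 0.12 for Fgf8, -0.097 to 0.0098 for Epcam, -0.26 to 0.012 for Spry4, -0.33 to 0.067 for Grem1 and -0.17 to 0.067 for Tfap2c. In the Hand2 comparison they ran from -0.16 to 0.075 for Sp8, -0.091 to 0.14 for En1, -0.067 to 0.027 for Trp63, -0.33 to 0.21 for Sp9, -0.21 to 0.09 for Dlx6 and -0.039 to 0.47 for Dlx5. The differences between both effects ran from -0.039 to 0.21 for Dlx1, -0.31 to 0.20 for Dlx5 and -0.055 to 0.18 for Sp8. The cause of these changes was not tested. Depth limits Dlx6 most, with 32 to 115 counts per library.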
